A study of Rattus norvegicus with 9 samples.

Results

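Kinesins are motor proteins that use ATP to move along microtubules or to take microtubules apart. In neurons, members of the kinesin-1, kinesin-2 and kinesin-3 families carry vesicles, mitochondria and receptors from the cell body into axons and dendrites. Another set builds the spindle, moves chromosomes and completes cell division, and is known to be made mainly by dividing cells. A further set works in or at the base of cilia. The genes described here are the 42 rows of the deposited tables whose symbol begins with Kif followed by a digit or a c, of 22050 rows in all. Of the 42, 41 carry the name of a kinesin motor, and Kif1bp, the KIF1 binding protein, is not a motor and was counted apart. The motors were sorted by known role into 16 transport kinesins, 13 mitotic kinesins, 6 kinesins of cilia and 6 others, and 39 of the 42 rows had enough reads to be tested.

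The RNA came from primary cultures of cortical neurons taken from Sprague Dawley rats at embryonic day 19, in 3 groups of 3 libraries. In the first group, cultures went through oxygen-glucose deprivation (OGD) and normoxia and received 100 ng/ml of Wnt3a, a secreted ligand of the beta-catenin pathway, plus 50 ng/ml of Rspondin 1, a secreted protein that strengthens the response to Wnt, with a treatment of 24 h; it is called OGD+WR here. The second group went through OGD alone, which is a culture model of stroke: 4.5 h at 1% oxygen in medium without glucose and pyruvate, then a return to normal oxygen and medium. The deposited tables call this group vehicle, while its labels name no vehicle. The third group was untreated control. Hours and oxygen are given in the labels of OGD alone, and no label gives the time of harvest. The labels do not say whether replicates are separate cultures, so p-values cover only the spread between these libraries, which may be technical.

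Total counts ran from 14285914 to 25048521 per library. Levels are given as FPKM (fragments scaled to gene length and library total) as the authors deposited them, and changes come from a fit of the counts over all 13693 genes with enough reads. The first principal component of all tested genes held 84.1% of the variance and set the controls apart from the 6 OGD libraries, and the following component (4.63%) held OGD replicate 1 away from the rest. The neuron label was checked against markers. Of all tested genes, 36.3% rose and 36.8% fell after OGD at an adjusted p under 0.05. All 12 neuron markers fell after OGD, with summed levels of 512 to 661 FPKM in OGD+WR, 510.0 to 683 FPKM in OGD and 2890 to 3030 FPKM in controls. Astrocyte markers summed to 6280 to 6570, 6660 to 7270 and 2470 to 2640 FPKM in the same order of groups, and 9 of 10 rose after OGD. All 7 microglia markers with enough reads rose, with sums of 23.3 to 27, 22.2 to 24.2 and 3.53 to 5.74 FPKM. Neural progenitor markers (5 higher, 1 lower of 7 tested) summed to 4020 to 4530, 4010 to 4580 and 1050 to 1180 FPKM, and oligodendrocyte lineage markers (6 higher, 3 lower of 9) to 1060 to 1140, 1090 to 1110 and 428 to 513 FPKM. Of the markers found in the tables, none was at 0 in every library. In bulk RNA such as this, fewer cells of a type and less RNA per cell cannot be told apart, and the part of these shifts in the results below was not tested.

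Promoter sequences of 5 mitotic kinesins and of 2 transport kinesins that fell after OGD are shown first, as examples of the motifs counted across the classes. RefSeq promoters on the rat build GRCr8 were found for 31 of the 42 genes; each entry runs from 250 bases before to 50 bases after a transcript start. The 7 printed windows run from 150 bases before to 10 bases after the start, 5′ to 3′. Capitals mark TTTGAA, the letters of the cell cycle genes homology region (CHR), CCAAT, the box bound by NF-Y, and CAGCACC, part of the RE1 site bound by the neuronal repressor REST, each on either strand. The first 5 belong to mitotic kinesins.
Kif4a, chrX:69761733-69761892, + strand: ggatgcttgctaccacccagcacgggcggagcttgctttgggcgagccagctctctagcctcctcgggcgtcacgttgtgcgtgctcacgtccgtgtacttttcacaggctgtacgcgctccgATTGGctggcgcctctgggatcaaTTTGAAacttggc
Kif15, chr8:131479254-131479413, + strand: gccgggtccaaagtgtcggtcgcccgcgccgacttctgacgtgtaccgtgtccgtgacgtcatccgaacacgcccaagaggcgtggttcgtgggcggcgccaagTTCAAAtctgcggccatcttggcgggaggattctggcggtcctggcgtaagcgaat
Kif22, chr1:191080869-191081028, - strand: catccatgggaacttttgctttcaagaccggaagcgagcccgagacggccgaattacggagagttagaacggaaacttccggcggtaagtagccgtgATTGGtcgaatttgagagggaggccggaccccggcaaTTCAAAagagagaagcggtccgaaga
Kif23, chr8:71320575-71320734, - strand: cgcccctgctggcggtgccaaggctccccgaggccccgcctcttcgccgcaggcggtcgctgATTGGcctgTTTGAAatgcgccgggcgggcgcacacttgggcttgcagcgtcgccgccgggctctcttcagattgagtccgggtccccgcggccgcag
Kifc1, chr20:5000779-5000938, + strand: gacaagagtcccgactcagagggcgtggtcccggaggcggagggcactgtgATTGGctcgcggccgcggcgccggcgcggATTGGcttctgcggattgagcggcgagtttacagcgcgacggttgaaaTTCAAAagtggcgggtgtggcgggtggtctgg
Kif1a, chr9:101094768-101094927, - strand: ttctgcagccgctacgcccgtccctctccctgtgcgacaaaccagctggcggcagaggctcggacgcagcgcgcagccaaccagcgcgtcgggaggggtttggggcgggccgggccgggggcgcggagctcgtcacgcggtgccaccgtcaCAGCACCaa
Kif3a, chr10:38226620-38226779, + strand: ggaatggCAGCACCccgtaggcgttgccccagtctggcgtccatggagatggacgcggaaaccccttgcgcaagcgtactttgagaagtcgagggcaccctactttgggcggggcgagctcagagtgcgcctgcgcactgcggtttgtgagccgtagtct

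TTTGAA stood in the promoter entry of 6 of 11 mitotic kinesins (Kif4a, Kif15, Kif20b, Kif22, Kif23 and Kifc1), 0 of 12 transport kinesins, 0 of 4 kinesins of cilia, 2 of 4 other kinesins (Kif26b and Kif28p) and 18.3% of all 33469 promoters of the table. In Kif22, Kifc1 and Kif4a its first base lay at positions -16, -22 and -3 from the start. In Kif15 it lay at -249 and -46, in Kif23 at -79 and in Kif20b at -116, 2 and 8. CCAAT was in 7 of 11 mitotic kinesins, 3 of 12 transport kinesins, 2 of 4 kinesins of cilia, 1 of 4 other kinesins (Kif26b) and 37.5% of all promoters. Kif26b thus held both TTTGAA and CCAAT, and it fell after OGD. CAGCACC was in 4 of 12 transport kinesins (Kif1a, Kif1b, Kif3a and Kif5c), in Kif20b among the mitotic kinesins, in Kif6 among those of cilia and in 6.78% of all promoters. Within the 150 bases before the start it remained in 1 of 12 transport kinesins (Kif3a) and 0 of 11 mitotic kinesins, against 3.3% of all promoters; the match printed for Kif1a lies after the start, at position 2. The shares of all promoters count promoter entries, while kinesins are counted as genes with a match in any entry, so the units differ. Matches of different motifs did not overlap in the members. A match describes letters only, and Kif5a, Kif21b and Kifc2 had no entry.

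Of the 16 transport kinesins, 9 fell and 4 rose, while 9 of the 12 tested mitotic kinesins and all 6 kinesins of cilia rose after OGD and none fell. Of the 4 tested other kinesins, 1 rose and 2 fell. These counts depend on the sorting. Kif2a, a relative of the mitotic kinesin Kif2c, was placed with the others and fell (log2 change -0.82). Kif3a, which works in axons and cilia, was placed with the transport kinesins and fell (-1.17). Over all 39 tested members 20 rose and 11 fell at an adjusted p under 0.05, where 36.3% of all tested genes rose and 36.8% fell, together 73.1%. The share of members that moved is thus close to the share of all genes. OGD and control libraries did not overlap in FPKM for 4 transport kinesins that were higher and 8 that were lower, and for 8 mitotic kinesins that were higher, where 40.7% of all tested genes were higher without overlap and 34.6% lower. The median log2 change was -0.44 for transport kinesins, 0.62 for mitotic kinesins, 1.14 for kinesins of cilia and 0.02 for all tested genes. A fall of at least 2-fold was called for 7 transport kinesins, against 18.8% of all genes, and a rise of at least 2-fold for 1 transport, 1 mitotic and 4 cilia kinesins, against 14.2%. The authors' deposited table of OGD against control lists 27 of the 42 rows with an FDR under 0.05, 16 higher and 11 lower.

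**Figure D1:**
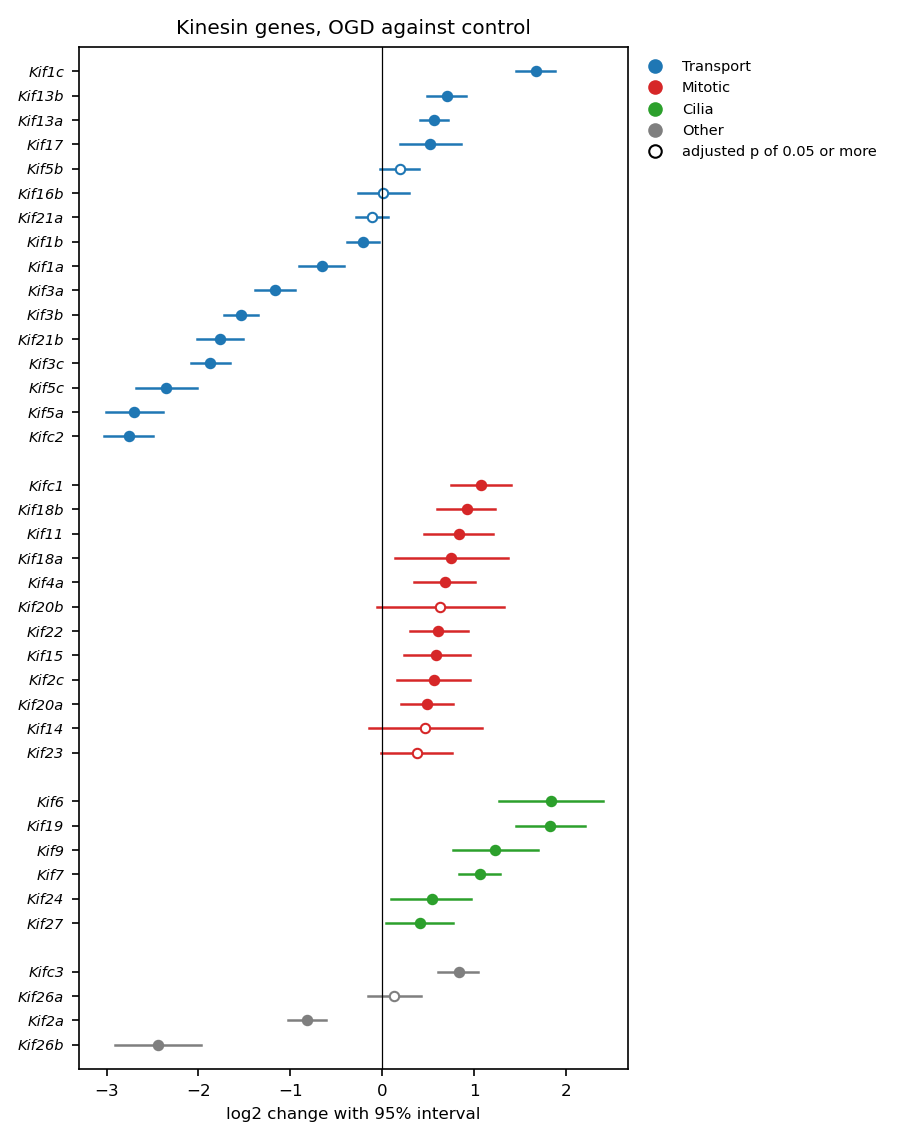
Log2 change of each tested kinesin motor in OGD against control libraries (horizontal axis) with its 95% interval (line), grouped by class; filled points passed an adjusted p of 0.05. The transport kinesins spread from Kif1c at 1.67 to Kifc2 at -2.76, while the points of all 12 mitotic and 6 cilia kinesins lie above 0.

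Of kinesin-1, the motor of fast axonal transport, 2 heavy chain genes fell and 1 did not pass. Kif5a (ENSRNOG00000005299), the neuronal heavy chain, stood at 31.8, 37.7 and 45.2 FPKM in OGD+WR, 38.5, 33.4 and 49.4 FPKM in OGD and 269.7, 254 and 244 FPKM in controls. It was 6.49-fold lower in OGD than in controls (log2 change -2.70 ± 0.14, change ± SE, adjusted p = 3.99e-09). Kif5c (ENSRNOG00000004680), the heavy chain enriched in neurons, stood at 31.8, 34.8 and 41.7 FPKM in OGD+WR, 28.7, 32.9 and 43.6 FPKM in OGD and 168, 164 and 173 FPKM in controls. It fell by 2.35 ± 0.15 on the log2 scale (adjusted p = 2.7e-08), and in both genes every OGD library lay far below every control.

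Kif5b (ENSRNOG00000017466), the heavy chain made by most cell types, did not pass the test. It had 47.6, 45.9 and 48.3 FPKM in OGD+WR, 36.2, 47.9 and 46.2 FPKM in OGD and 32.0, 37.0 and 39.0 FPKM in controls. The OGD and control libraries overlapped, and the log2 change was 0.19 ± 0.10 (adjusted p = 0.106). It passed without OGD replicate 1 (0.29, adjusted p = 0.0028) and when scaled to library totals (0.27, adjusted p = 0.0326). As a share of the FPKM of the 3 heavy chains, Kif5b made up 35.7% to 42.8% in OGD+WR, 33.2% to 42% in OGD and 6.81% to 8.54% in controls. The summed level of the 3 was 111 to 135, 103 to 139 and 455 to 470.0 FPKM. Kif5a thus ran at 0.697 to 1.07 times Kif5b in OGD and at 6.27 to 8.43 times Kif5b in controls.

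**Figure D2:**
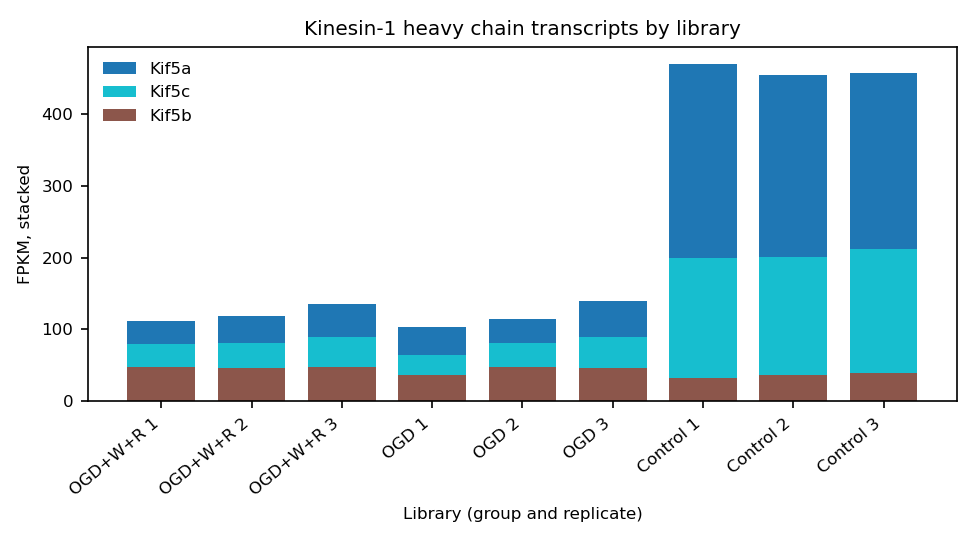
FPKM of the kinesin-1 heavy chain genes Kif5a, Kif5c and Kif5b stacked for each library (bars, from 0), by group and replicate. The stacks reach 103 to 139 FPKM in OGD and 455 to 470.0 FPKM in controls. The Kif5b part is 45.9 to 48.3 FPKM in OGD+WR, 36.2 to 47.9 FPKM in OGD and 32.0 to 39.0 FPKM in controls.

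Of the kinesin-2 genes, 3 fell and 1 rose. Kif3a (ENSRNOG00000007515), a motor of the heterotrimeric kinesin-2 that works in axons and cilia, had 46.0, 50.9 and 56.9 FPKM in OGD+WR, 42.7, 49.8 and 55.7 FPKM in OGD and 101, 103 and 109 FPKM in controls. Kif3c (ENSRNOG00000011394), a relative abundant in neurons, had 26.1, 29.2 and 32.1, then 27.2, 27.2 and 33.5, then 104, 98.9 and 98.6 FPKM in the same groups. The log2 changes after OGD were -1.17 ± 0.10 for Kif3a and -1.87 ± 0.10 for Kif3c (adjusted p = 2.59e-07 and 2.81e-09), with no overlap of OGD and control libraries. Kif3b, the other partner of Kif3a, fell by 1.54 ± 0.09. Kifap3, the subunit that joins this motor to cargo, fell by 1.70 ± 0.12. Kif17, the dendritic member of the family that carries NMDA receptor vesicles, moved the opposite way at a low level: it had 1.70, 1.46 and 1.35 FPKM in OGD+WR, 2.12, 1.72 and 1.74 FPKM in OGD and 1.23, 1.2 and 1.22 FPKM in controls, a rise of 0.52 ± 0.15 (adjusted p = 0.00817).

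The kinesin-3 genes include the kinesins of highest level in OGD, Kif1a and Kif1b, with means of 208 and 186 FPKM whose libraries overlapped. Kif1a (ENSRNOG00000023993), which carries synaptic vesicle precursors and dense core vesicles, had 196, 153 and 197 FPKM in OGD+WR, 232, 185 and 207 FPKM in OGD and 327, 316 and 287 FPKM in controls. It fell by 0.66 ± 0.11 on the log2 scale (adjusted p = 0.000145), while the 12 neuron markers changed by -3.72 to -1.58. Kif1b (ENSRNOG00000057626), a motor for mitochondria and vesicle precursors, had 180.4, 156 and 194 FPKM in OGD+WR, 189, 180.1 and 189 FPKM in OGD and 188, 195 and 186 FPKM in controls. These libraries overlapped in FPKM, but the gene length that counts and FPKM imply for Kif1b ran from 6518 to 7374 bases. Scaled to library totals, its counts were lower in every OGD library than in every control. The small fall in the fit was -0.21 ± 0.08 (adjusted p = 0.0271). This call was lost with library totals (adjusted p = 0.159), without any single control library (0.0535 to 0.106) and without OGD replicate 2 (0.0751). Together Kif1a and Kif1b made up 38.4% to 42.8% of all kinesin motor FPKM in OGD+WR, 42.2% to 45.8% in OGD and 30.9% to 32.6% in controls. Kif5a had been close to Kif1a in controls, at 0.804 to 0.852 times its FPKM, and stood at 0.166 to 0.239 times it in OGD.

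The transport kinesins that rose were Kif17 and 3 of the kinesin-3 family. Kif1c (ENSRNOG00000031364), a vesicle motor made in many cell types, had 57.2, 48.6 and 50.4 FPKM in OGD+WR, 60.5, 53.7 and 50.2 FPKM in OGD and 16.3, 17 and 15.3 FPKM in controls. It was 3.19-fold higher in OGD (1.67 ± 0.10, adjusted p = 6.46e-09). Its OGD mean of 54.8 FPKM came next after Kif1a and Kif1b, beside Kifc3 at 53.4 and Kif3a at 49.4 FPKM, from which its libraries were not separate. Kif13a, an endosome motor, had 14.4, 13.4 and 14.4 FPKM in OGD+WR, 14.9, 13.8 and 14.3 FPKM in OGD and 9.05, 9.48 and 8.86 FPKM in controls, a rise of 0.56 ± 0.07 (adjusted p = 1.15e-05). Kif13b, a related vesicle motor, had 7.13, 6.43 and 7.43 FPKM in OGD+WR, 6.94 to 7.99 FPKM in OGD and 4.11 to 4.67 FPKM in controls, a rise of 0.70 ± 0.10 (adjusted p = 2.2e-05). Kif16b, an early endosome motor, had a change of 0.01 ± 0.13 (adjusted p = 0.93).

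**Figure D3:**
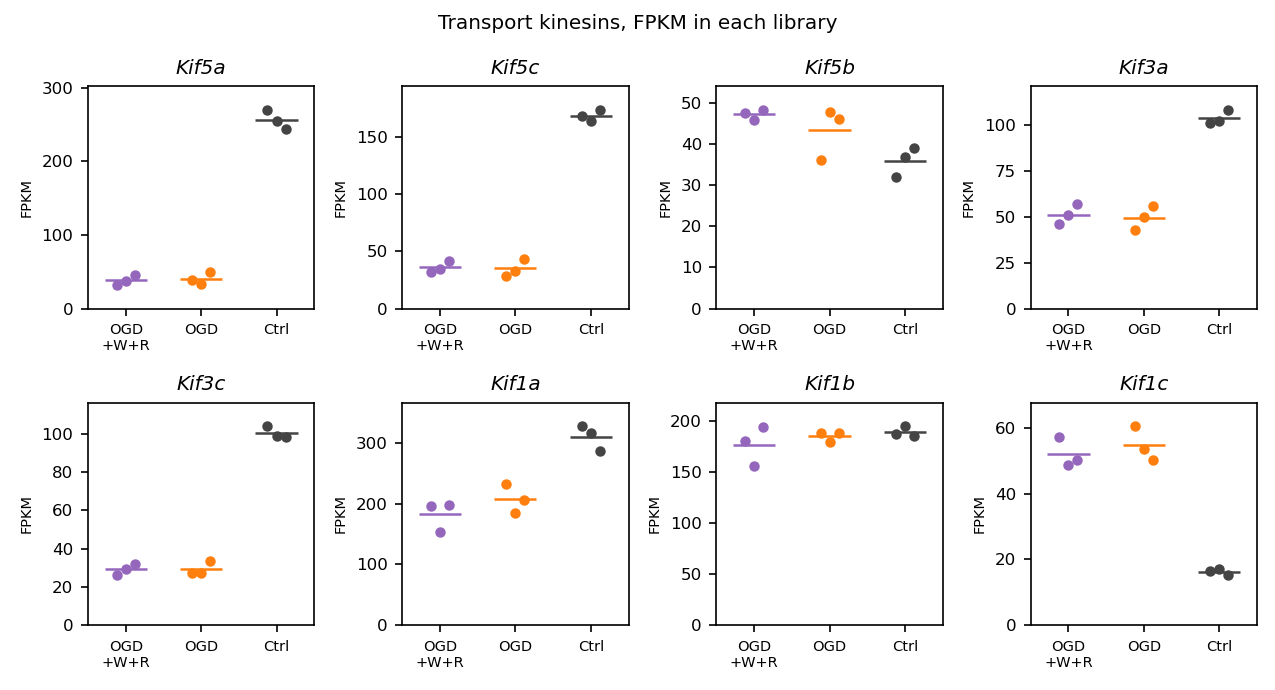
FPKM of 8 transport kinesins in each library (points) with the group mean (line); the axes start at 0, and Ctrl is control and OGD +W+R is OGD+WR. Kif5a, Kif5c, Kif3a and Kif3c are low in all 6 OGD libraries, Kif1b overlaps between groups, and Kif1c is at 48.6 to 60.5 FPKM in them against 15.3 to 17 FPKM in controls.

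Divergence between relatives also appeared in the kinesin-4 and kinesin-14 families; these pairs were picked after their values were seen. Kif21b, a dendritic motor, had 28.1, 21.7 and 28.4 FPKM in OGD+WR, 30.3, 26.5 and 31.6 FPKM in OGD and 103, 95.1 and 86.3 FPKM in controls, and fell by 1.77 ± 0.11. Kif21a, a regulator of microtubule growth, had a change of -0.11 ± 0.08 (adjusted p = 0.21) from a mean of 24.8 FPKM in controls. Kifc2, a neuronal motor of the minus-end directed family, had 12.3, 14.3 and 15 FPKM in OGD+WR, 13.8, 11.4 and 16.4 FPKM in OGD and 94.6, 84.6 and 85.5 FPKM in controls, and at -2.76 ± 0.12 its log2 change was the lowest of all members. Kifc3 (ENSRNOG00000014087), the family member known from epithelial cells, had 49.1, 44.1 and 42.0 FPKM in OGD+WR, 61.4, 49.2 and 49.6 FPKM in OGD and 28.9, 28.9 and 27.4 FPKM in controls, a rise of 0.83 ± 0.10 (adjusted p = 6.83e-06). Kifc2 stood at 0.225 to 0.331 times Kifc3 in OGD and 2.93 to 3.28 times Kifc3 in controls.

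Mitotic kinesins rose after OGD from low levels. Their summed level was 42.2 to 48.7 FPKM in OGD+WR, 33.4 to 37.6 FPKM in OGD and 18.6 to 21.2 FPKM in controls. As shares of all kinesin motor FPKM these were 4.8% to 6.04%, 3.57% to 4.36% and 1.16% to 1.38%. The total of all motors was 806.1 to 930.9, 862.9 to 937.6 and 1527 to 1602 FPKM in the same order of groups. The higher shares after OGD thus reflect a lower total as well as a higher mitotic sum. Sums and shares include Kif18b, whose level is uncertain as described below. Kif11 (ENSRNOG00000056069), the Eg5 motor that pushes spindle poles apart, had 2.82, 2.88 and 3.67 FPKM in OGD+WR, 2.03, 3.09 and 2.28 FPKM in OGD and 1.14, 1.37 and 1.45 FPKM in controls, and rose by 0.83 ± 0.17 (adjusted p = 0.000847). Kifc1 (ENSRNOG00000000479), the HSET motor that gathers spindle poles, had 5.99, 5.41 and 5.95 FPKM in OGD+WR, 6.33, 4.65 and 4.63 FPKM in OGD and 2.15, 2.24 and 2.55 FPKM in controls. Its rise of 1.07 ± 0.15 (adjusted p = 2.84e-05) was the largest in the class. All OGD libraries were above all controls for both genes.

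Kif22 (ENSRNOG00000020281), a chromokinesin that binds DNA, had 8.65, 6.71 and 6.61 FPKM in OGD+WR, 6.06, 5.47 and 5.44 FPKM in OGD and 2.89, 3.78 and 3.78 FPKM in controls, and rose by 0.61 ± 0.14 after OGD (adjusted p = 0.0019). Kif20a (ENSRNOG00000024428), the MKLP2 motor of cytokinesis, had 5.02, 5.25 and 5.97 FPKM in OGD+WR, 4.46, 4.09 and 3.91 FPKM in OGD and 3.17, 2.46 and 2.72 FPKM in controls, and rose by 0.49 ± 0.13 (adjusted p = 0.00482). Both separated OGD from control. Kif23 (ENSRNOG00000014080), the MKLP1 motor of the central spindle, had 2.82, 3.81 and 3.16 FPKM in OGD+WR, 2.11, 3.17 and 2.58 FPKM in OGD and 2.15, 1.82 and 1.73 FPKM in controls. Its groups overlapped, with a change of 0.38 ± 0.18 (adjusted p = 0.0712). It passed with library totals (0.46, adjusted p = 0.0312), without control replicate 1 (0.49, adjusted p = 0.0446) and without OGD replicate 1 (0.50, adjusted p = 0.0171), and without other single libraries its change was as low as 0.21.

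Kif18b (ENSRNOG00000021713), which shortens astral microtubules, was listed at 8.23, 14.9 and 13.5 FPKM in OGD+WR, 8.78, 9.47 and 6.53 FPKM in OGD and 2.81, 4.46 and 4.42 FPKM in controls, with a rise of 0.92 ± 0.15 in the counts (adjusted p = 8.02e-05). Its FPKM did not follow its counts: the gene length they imply ran from 912 to 2266 bases between libraries, so its level is uncertain. Without it the class summed to 33.8 to 35.2 FPKM in OGD+WR, 26.4 to 28.2 FPKM in OGD and 15.8 to 16.7 FPKM in controls. Kif4a, a chromokinesin of the central spindle, rose by 0.68 ± 0.15, Kif15, which backs up Eg5, by 0.59 ± 0.16, the centromere depolymerase gene Kif2c by 0.56 ± 0.18 and Kif18a, a motor of chromosome alignment, by 0.75 ± 0.28. Kif20b (0.63 ± 0.32) and Kif14 (0.47 ± 0.28), both of cytokinesis, did not pass. Kif20b passed with a replicate block (0.59, adjusted p = 0.0417), without control replicate 3 (0.88, adjusted p = 0.0491) and without OGD replicate 1 (0.93, adjusted p = 0.00234). Kif2b had 0 reads in every library, which allows up to 3 counts in each. OGD replicate 1 held the lowest OGD level of Kif2c, Kif4a, Kif11, Kif14, Kif15, Kif18a, Kif20b and Kif23, and the highest of Kif20a, Kif22 and Kifc1. For Kif2c (1.57 against 1.59 FPKM) and Kif14 (0.32 against 0.34 FPKM) it lay close to the next library. Without OGD replicate 1, 11 mitotic kinesins rose, and without OGD replicate 3, 7 did. The call of Kif18a was lost without control replicate 1 or 3 or OGD replicate 2 or 3 (adjusted p = 0.0673 to 0.108), and that of Kif2c without control replicate 2 (0.0501) or OGD replicate 3 (0.082).

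**Figure D4:**
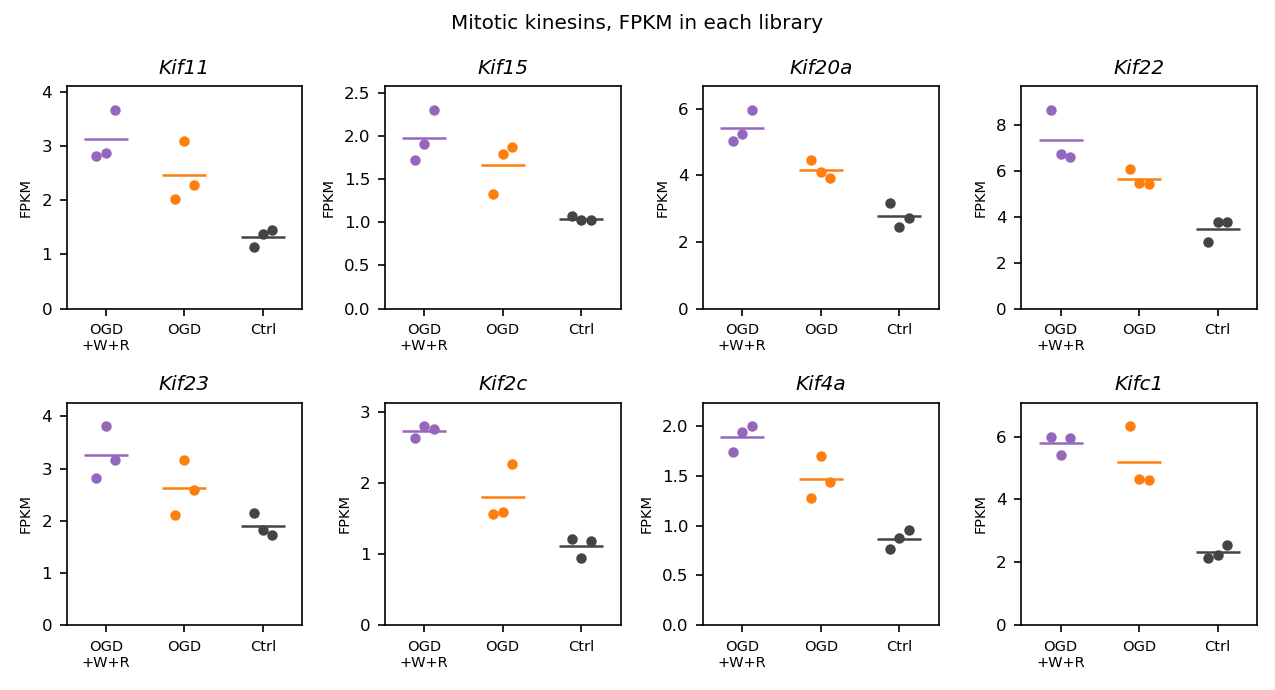
FPKM of 8 mitotic kinesins in each library (points) with the group mean (line); the axes start at 0. Control libraries sit lowest for 7 of the 8 genes without overlap, and the OGD+WR mean is above the OGD mean in all 8 panels.

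Genes that work with the mitotic kinesins moved the same way, where 36.3% of all tested genes rose and 36.8% fell. Of 23 such partners tested, 16 rose and 1 fell (median log2 change 0.71). Among them were the microtubule bundler Prc1 (1.08 ± 0.14), the spindle gene Aspm (0.82 ± 0.10), the checkpoint kinase gene Bub1b (1.13 ± 0.16) and the kinase gene Aurkb (2.21 ± 0.08), whose mean of 40.4 FPKM over all libraries was far above that of the others. Mad2l1, a checkpoint gene, fell by 0.49 ± 0.17, a call lost with library totals, without control replicate 3 and without OGD replicate 1 (adjusted p up to 0.105). Cenpe, a kinesin of the centromere whose symbol the rule does not match, rose by 0.52 ± 0.22, a call lost in 7 of 12 alternatives (adjusted p up to 0.143). Cdca8 and Nuf2 also rose, and their calls were lost in 6 and 5 of 12 alternatives. With 1 library left out, 13 to 16 genes of the list were called. The rises came beside those of astrocyte, progenitor and microglia markers given above, and their part was not tested.

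All 6 genes sorted as kinesins of cilia rose after OGD. Kif3a, which works in axons and cilia, was sorted with the transport kinesins and fell by 1.17 ± 0.10. Its partners Kif3b and Kifap3 fell by 1.54 ± 0.09 and 1.70 ± 0.12. Kif7 (ENSRNOG00000026857), a regulator of Hedgehog signalling at the tip of the primary cilium, had 16.6, 15.6 and 14.4 FPKM in OGD+WR, 19, 16 and 15.1 FPKM in OGD and 7.30, 7.88 and 7.53 FPKM in controls, and rose by 1.06 ± 0.10 (adjusted p = 7.68e-07). Kif19 (ENSRNOG00000003105), which limits the length of motile cilia, had 5.16, 3.92 and 4.49 FPKM in OGD+WR, 5.34, 4.34 and 4.21 FPKM in OGD and 1.18, 1.53 and 1.01 FPKM in controls, and rose by 1.83 ± 0.18 (adjusted p = 7.22e-07). Kif6 and Kif9, both of motile cilia, rose by 1.84 ± 0.26 and 1.23 ± 0.21 at levels under 3 FPKM. Kif24 (0.54 ± 0.20) and Kif27 (0.41 ± 0.17) rose by less, and each lost its call under several alternatives (adjusted p up to 0.0924 and 0.191). Of 9 markers of ependymal and other ciliated cells, 6 rose and none fell (median 0.97), where 36.3% of all tested genes rose. Their summed levels were 29.9 to 31.6 FPKM in OGD+WR, 27.3 to 30.8 FPKM in OGD and 12.7 to 15.1 FPKM in controls. The part of these markers was not tested.

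Of the remaining kinesins, Kif2a (ENSRNOG00000014000), a microtubule depolymerase that limits axon branches, had 25.3, 25.4 and 28.1 FPKM in OGD+WR, 20.2, 26.1 and 26.8 FPKM in OGD and 38.7, 40.6 and 42.5 FPKM in controls, and fell by 0.82 ± 0.10 (adjusted p = 6.16e-06). Its relative Kif2c had risen. Kif26a (ENSRNOG00000013661), a kinesin-like protein without motor activity, had 8.77, 6.62 and 6.49 FPKM in OGD+WR, 8.78, 7.10 and 7.74 FPKM in OGD and 7.30, 7.11 and 5.92 FPKM in controls, with a change of 0.13 ± 0.13 (adjusted p = 0.397). Kif26b, a relative picked for its value, fell by 2.44 ± 0.22, to 1.14 ± 0.369 FPKM in OGD, against 5.78 ± 0.215 FPKM in controls (mean ± SD, n = 3 each). Kif1bp had a change of -0.05 ± 0.07, and Kif12 and Kif28p had 0 or 1 read per library.

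Partners of transport kinesins and the opposite motor fell with them. Of 18 tested genes of kinesin light chains and cargo adaptors, 14 fell and 3 rose (median log2 change -0.52). Of all tested genes, 36.8% fell and 36.3% rose. The light chain genes Klc2 and Klc1 fell by 2.04 ± 0.08 and 1.26 ± 0.08, the scaffold gene Mapk8ip2 by 1.99 ± 0.11 and the Rab3 regulator gene Madd, which links Kif1 motors to vesicles, by 2.21 ± 0.12. The 3 that rose were Plekhm2 (1.09 ± 0.09) and Arl8b (0.25 ± 0.11), both of lysosome transport, and the light chain gene Klc4 (0.61 ± 0.12); the call of Arl8b was lost in 8 of 12 alternatives (adjusted p up to 0.19). Of 23 genes of cytoplasmic dynein, the motor that runs back toward the cell body, and its activators, 19 fell and 2 rose (median -0.42). The shares of all tested genes to set beside these are again 36.8% and 36.3%. The intermediate chain gene Dync1i1 changed most, at -2.98 ± 0.20, beside Dync1li1 at -1.31 ± 0.07, Dctn1 at -1.15 ± 0.08 and Ndel1 at -1 ± 0.08, while Nde1 (1.38 ± 0.16) and Dynlt1 (0.20 ± 0.08) rose; the call of Dynlt1 was lost in 7 of 12 alternatives (adjusted p up to 0.0987). Calls of genes that fell were lost too: Dctn3 in 8, Dynll1 in 7 and Dctn5 in 2 of 12 alternatives. Among the adaptors, Trak1 lost its call in 3 and Rhot1 in 2 of 12. With 1 library left out, 17 to 21 dynein genes and 15 to 17 light chain and adaptor genes were called. Neuron markers fell beside both lists, from summed levels given above. The part of these markers was not tested.

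Wnt3a plus Rspondin 1 after OGD was then set against OGD alone. No kinesin passed an adjusted p of 0.05 by edgeR's quasi-likelihood test, where 0.197% of all tested genes did (0.175% higher, 0.0219% lower), and DESeq2 called 0 as well. At an unadjusted p under 0.05, 5 members were higher and 1 lower of 39, against 2.74% and 2.99% of all genes, together 5.73%. The authors' deposited table of this comparison lists 0 of the 42 rows with an FDR under 0.05. For the 16 transport kinesins the median log2 change was -0.06, and their 95% intervals lay between -0.65 and 0.38, so that a 2-fold difference is outside each of them. Kif5a, for example, had a change of -0.08 ± 0.13 and Kif5c of 0.06 ± 0.15, and their OGD+WR and OGD libraries overlapped.

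Mitotic kinesins all had positive values in this comparison, 12 of 12 tested, with a median of 0.32, against 0.001 for all tested genes. None passed the adjustment. By edgeR's quasi-likelihood test, 5 had intervals above 0 before adjustment. Kif2c had a change of 0.52 (95% interval 0.15 to 0.90, adjusted p = 0.549), Kif20a of 0.36 (0.08 to 0.64, adjusted p = 0.625) and Kif22 of 0.36 (0.05 to 0.66, adjusted p = 0.738). Kif4a had 0.33 (0.01 to 0.64, adjusted p = 0.854) and Kif14 had 0.59 (0.02 to 1.17, adjusted p = 0.862). Without OGD+WR replicate 1 the change of Kif22 was 0.21. Kif2c had 2.64, 2.80 and 2.76 FPKM in OGD+WR, 1.57, 1.59 and 2.27 FPKM in OGD and 1.21, 0.95 and 1.19 FPKM in controls. Kif4a had 1.74, 1.94 and 2 FPKM in OGD+WR, 1.28, 1.7 and 1.44 FPKM in OGD and 0.77, 0.88 and 0.96 FPKM in controls, and Kif14 was under 1 FPKM in every library. OGD replicate 1 was the lowest OGD library for Kif2c, Kif4a and Kif14, and without it their changes were 0.44, 0.25 and 0.48; without OGD replicate 2 that of Kif14 was 0.88. For Kif2c, Kif20a, Kif22 and Kif4a every OGD+WR library was above every OGD library, 4 of 12, while 5.86% of all tested genes separated that way. The class median stayed positive when any single library was left out, between 0.28 and 0.42.

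Of their 23 partner genes, 14 were higher and 1 lower at an unadjusted p under 0.05, against 2.74% and 2.99% of all genes. Among the 14 were Top2a (0.39) and Cdk1 (0.37), which no naming rule selected, and the OGD+WR and OGD libraries of Cdk1 overlapped. Partner values had the sign of the mitotic kinesins in 22 of 23, with a median of 0.34. Aurkb, at -0.41, was the exception, with an adjusted p of 0.0625 by edgeR's quasi-likelihood test. Mitotic kinesins and partners were read in the same libraries, so their shared signs are not independent observations. Among kinesins, Kifc3 alone had an interval below 0 before adjustment, at -0.27 (-0.48 to -0.05, adjusted p = 0.673), and at -0.14 without OGD replicate 1. All its OGD+WR libraries were below all OGD libraries, as were those of Kif17 at -0.32 (-0.65 to 0.01), while 3.87% of all genes separated that way. The kinesins of cilia had changes of -0.12 to 0.36 and the other kinesins of -0.27 to 0.13. Progenitor and microglia markers had medians of -0.04 and 0.20 with none called. The progenitor marker Hes5 was at -1.08 (95% interval -1.60 to -0.57, adjusted p = 0.121, edgeR). All its OGD+WR libraries were below all OGD libraries. Of 10 astrocyte markers 1 was higher, the gap junction gene Gja1 (0.38 ± 0.06, adjusted p = 0.0404, edgeR), and the list's median was -0.05. Before adjustment, Gfap had an interval below 0 (-0.25, -0.44 to -0.06) and Slc1a2 an interval above 0 (0.29, 0.02 to 0.55). Oligodendrocyte lineage markers had a median of 0 with none called, and Mog (0.67, 95% interval 0.23 to 1.11) and Pdgfra (0.22, 0.04 to 0.40) had intervals above 0 before adjustment. The part of these markers in the values of the mitotic kinesins was not tested.

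**Figure D5:**
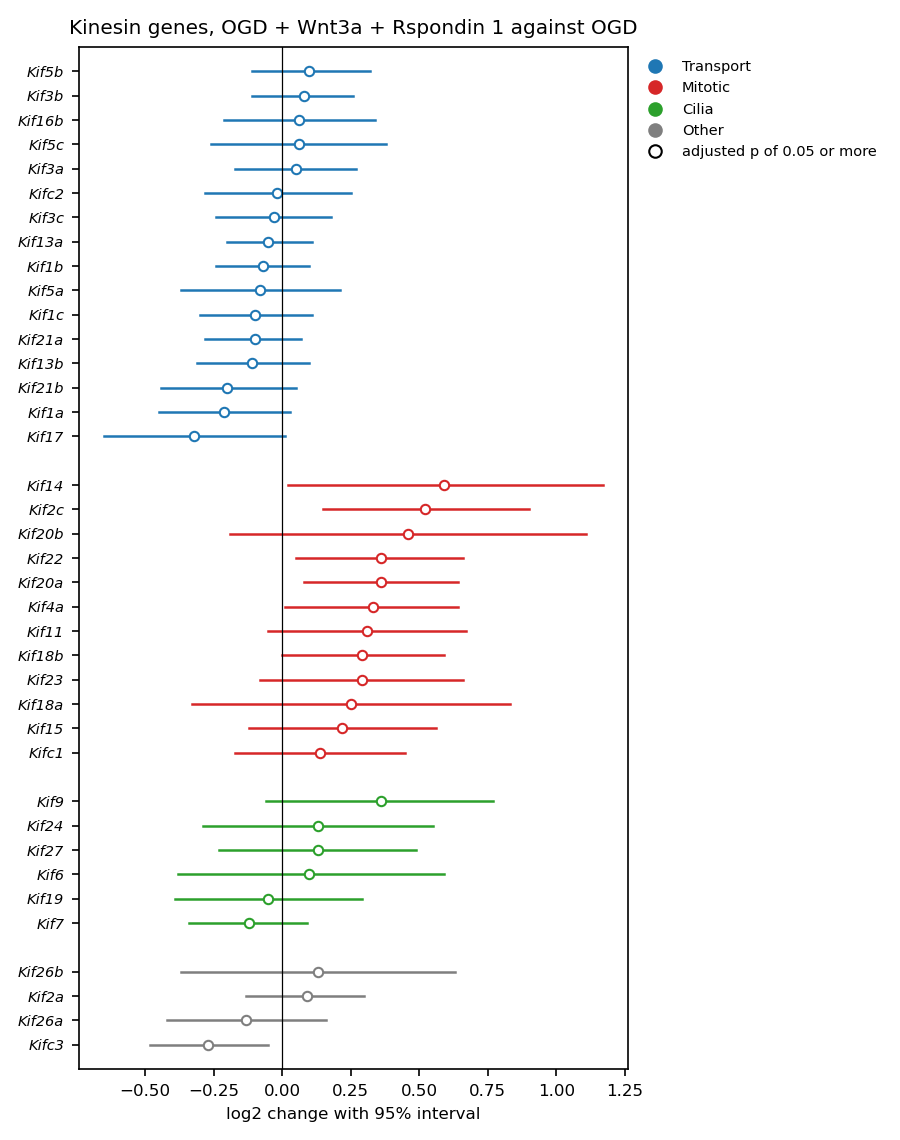
Log2 change of each tested kinesin motor in OGD+WR against OGD libraries (horizontal axis) with its 95% interval (line), grouped by class; open points mark an adjusted p of 0.05 or more. All points are open, and the 12 mitotic kinesins lie to the right of 0, at 0.14 to 0.59.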

How the data were processed

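The authors deposited counts per gene, whole numbers that are not normalized, and FPKM, scaled by gene length and library total, per the file headers. The authors' log2 fold, p-value and FDR columns, from a test that no label names, are quoted only as theirs. Bowtie (0.12.2), mm8 and mm9 appear in the submitters' processing notes; these are mouse builds, while the samples are rat. No label or header gives the rat build, the counter or the use of strand. Overlapping genes, antisense genes and close relatives may therefore share reads.

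The counts were fitted with edgeR 4.0.16 in R 4.3.3 over all 9 libraries: filterByExpr (minimum count 10, minimum total 15), TMM factors (0.943 to 1.033), robust quasi-likelihood F tests, Benjamini-Hochberg adjustment over 13693 genes and a threshold of 0.05; the script was tested on simulated data. Standard errors come from the F statistic. Levels are means ± SD of FPKM. DESeq2 1.42.0 was an alternative, beside other scalings, no filter, the 6 libraries compared, a replicate block and leaving out each library. A count of 0 allows up to 3 counts; such limits cover counting error only. No 2 replicates agreed within counting error (chi-square over its degrees of freedom, 3.68 to 29.8).

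Members, classes, lists and tests were chosen with earlier results of these data known, so lists are described by counts and medians without a p. Values per library are given for the 6 transport and 6 mitotic kinesins, 2 cilia and 3 other kinesins of highest mean FPKM, and for transport kinesins that rose; members that passed with Wnt3a plus Rspondin 1 were to be added, and there were none; of partner lists, up to 4 with the smallest adjusted p and up to 3 against the trend. Lists were matched by symbol; Kifbp (Kif1bp in the tables), Ccnb2, Itgam and Foxj1 were not matched. Kif5b, Kif3b, Kif21b, Kifc2, Kif2c, Kif4a and Kif26b were added after their values were seen. Other tables of the series were not used here.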

Additional observations from a re-analysis of the deposited data

How the results depend on the processing

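The number of kinesins called after OGD (31) ranged from 29 to 32 with other scalings, no filter on low counts, DESeq2, only the 6 libraries compared or a replicate block, and from 27 to 33 when 1 library was left out; the median of transport kinesins ranged from -0.48 to -0.35 (-0.35 with library totals) and that of mitotic kinesins from 0.58 to 0.74. Single genes kept their side of the threshold in 435 of 468 comparisons of a gene with an alternative, lost a call in 22, gained it in 8 and changed sign in 3: Kif1bp with library totals (0.03) and Kif16b without OGD replicate 2 or 3 (-0.05 to 0.13 over all libraries left out in turn); neither was called. With Wnt3a plus Rspondin 1, no alternative called a kinesin. The transport median ranged from -0.09 to 0.01 when 1 library was left out. Over all genes the 27 calls became 99 with DESeq2, 15 with only the 6 libraries compared and 12 to 49 with 1 library left out (49 without OGD replicate 1, 13 without OGD replicate 2, 12 without OGD+WR replicate 2, 17 without OGD+WR replicate 3). Of the mitotic partners, Aurkb, which was lower, was called with RLE factors, no filter and DESeq2 (1 gene each), and in 0 to 1 gene with 1 library left out. Within 150 bases before the start, CAGCACC was in 1 transport and 0 mitotic kinesins and in 3.3% of all promoters. The cause of these shifts was not tested. Replicates share numbers, but deviations of same-numbered libraries correlated at -0.055 to 0.273 and 0.073 to 0.267 in the comparisons, so the numbers were not taken as pairs, although with Wnt3a plus Rspondin 1 each library correlated best with its own number; a replicate block gave 32 kinesins after OGD, and 0 kinesins, 65 genes and 1 mitotic partner with the proteins. Counts of 17 to 77 reads for Kif14 and 23 to 97 for Kif20b limit what could be detected in them.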
